A study of Mus musculus with 14 samples.

Results

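Among the hypomethylated regions (HMRs, stretches of the genome with low cytosine methylation) listed for clones of the mouse mammary carcinoma line 4T1, 16421 were autosomal, at least 1 kb and under 20 kb long, and at exactly 0 in all 6 clones. They are called zero HMRs here. They were 17.7% of the 92584 autosomal HMRs of these lengths and 16.2% of all 101564 HMRs in the table. The 6 levels chose them, so a level of 0 in every clone is the definition and not a finding, and no level of a zero HMR can differ between clones. What could be measured was their length, their place, the HMRs around them, and, for each clone in turn, its share at 0 in the regions chosen by the other 5, as a description.

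Genomic DNA was bisulfite converted and sequenced, which leaves methylated cytosines unconverted and so gives a methylation level from 0 to 1. Clones E and T were labelled intravasating (able to enter blood vessels) and clones I, K, L and P non-intravasating. Each clone was grown from a single sorted cell of the same cultured tumour line, so the intravasating group held 2 clonal lines and the non-intravasating group 4, with 1 deposited value per clone. The unsorted parental line was not analysed here.

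In mammalian genomes most CpG sites are methylated, and the usual exceptions are short CpG islands at gene promoters, which are kept free of methylation by transcription factors and chromatin marks. Tumour cells also carry broad partially methylated domains, gene-poor stretches where methylation is lost unevenly over long distances. HMR callers pick up both kinds of sequence. The build of the HMR coordinates was not established: the processing notes name mm10, but 598 autosomal HMRs on 10 autosomes ended past the last RefSeq gene of that assembly. HMRs were therefore not assigned to genes and no sequence is shown. Positions are given as deposited, and they may not be mm10 positions.

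Zero was a common state shared between clones. Of the 92584 HMRs, 48393 were above 0 in every clone, 9521 were at 0 in 1 clone, 5665 in 2, 4340 in 3, 3925 in 4 and 4319 in 5. The count then went up to 16421 at 0 in all 6. No cell of the table was blank, so a region without a usable estimate would have no mark of its own. The regions just outside the limit were few at the low end: 12 HMRs that were not zero HMRs had their highest level under 0.01, 166 under 0.02 and 1669 under 0.05. The region on chromosome 1 from 24615129 to 24624726 was the nearest, at 0.00444, 0.00457, 0.00581, 0.00417, 0.00375 and 0.00561 in clones E, T, I, K, L and P. It was above 0 in all clones, while the next nearest, on chromosome 7 from 66856958 to 66859263, was at 0.00847 in clone T and at 0 in the others.

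The decimals of the levels bear on what an exact 0 means. Between 76.2% and 78.0% of the HMR levels above 0 had at most 6 significant digits, the rest had 7 or 8, and none had more. Of those with 7 or 8 digits, 99.0% to 99.4% ended in 5, the form of a midpoint between a pair of 6-digit values. Between 14.6% and 25.5% of levels above 0 were equal, to 5 decimals, to a fraction from 1/2 to 1/7. In the promoter table the same fractions made up 0.595% to 0.887% of levels above 0, and no level there had more than 6 digits. A median over the sites of a region would take values of this form, and a mean of the 2 rounds would also give midpoints. How the authors summarised an HMR was not stated in any label or header. If it was a median, an exact 0 needs only that more than 50% of the site values were 0, and a zero HMR need not be free of methylation throughout. Of the 22110 promoters listed, 5 were at 0 in all 6 clones.

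Zero HMRs were short. Their median length was 2749 bp (quartiles 1814 and 5479 bp), against 5425 bp (3554 and 7973 bp) for the other HMRs of the same limits. Of the 16421 zero HMRs 8816 were under 3 kb, against 13736 of the 76163 others. The share at 0 in all clones was 46.6% of the 11022 HMRs of 1 to 2 kb, 31.9% at 2 to 3 kb and 13.0% at 3 to 5 kb. It was 9.49% at 5 to 10 kb and 10.6% at 10 to 20 kb, so the longest class was no lower than the one before it. In all, 4588 zero HMRs were 5 kb or longer. The longest lay on chromosome 8 from 93135539 to 93155527 (19988 bp), on chromosome 14 from 18044544 to 18064530 (19986 bp) and on chromosome 7 from 55277213 to 55297165 (19952 bp). Just inside the lower limit were 3 zero HMRs of 1001 bp on chromosomes 6, 8 and 11. Just outside the limits, also at 0 in all clones, were an HMR of 999 bp on chromosome 19 and an HMR of 20017 bp on chromosome 8.

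**Figure D1:**
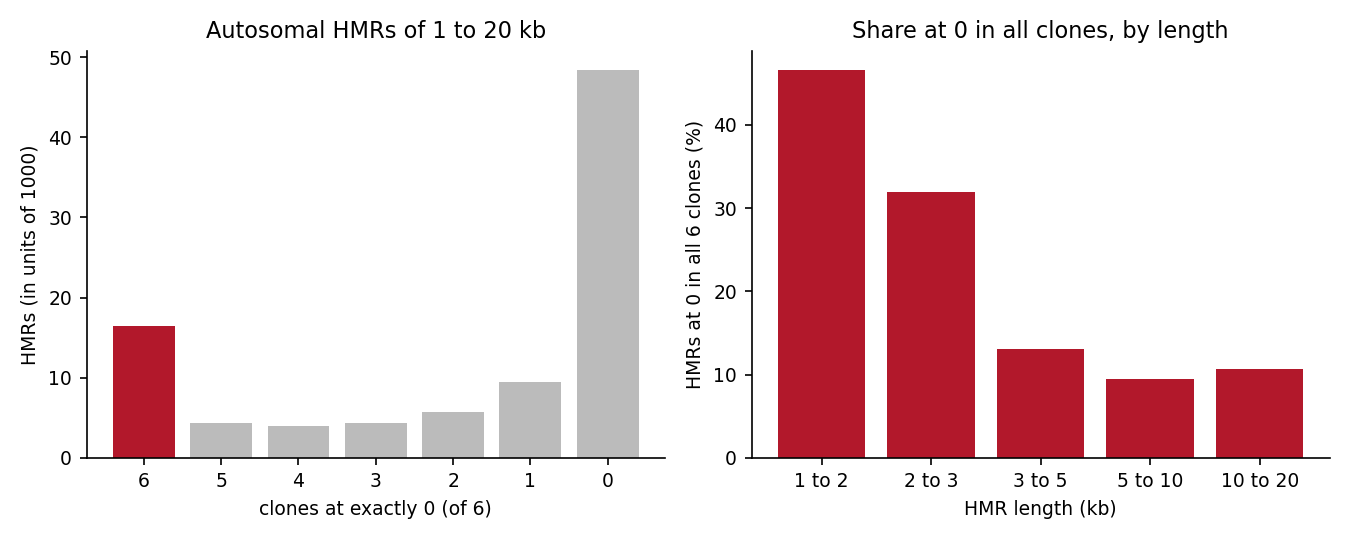
Left, number of autosomal HMRs of 1 to 20 kb (in units of 1000) by the number of clones at exactly 0, with the zero HMRs in red. Right, percentage of HMRs at 0 in all 6 clones by HMR length in kb. The counts are high at both ends, 16421 at 6 clones and 48393 at 0 clones, and the percentage is 46.6% at 1 to 2 kb and 9.49% at 5 to 10 kb.

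Each clone was then left out in turn and read in the regions at 0 in the other 5. The zero HMRs themselves are in all 6 of these sets, so the shares are a description and no test is given. Of the regions at 0 in the other 5 clones, clone E was also at 0 in 90.5% and clone T in 97.2%. The share was 97.1% in clone I, 98.4% in clone K, 94.3% in clone L and 97.8% in clone P. Among all other HMRs of these lengths the share at 0 was 8.08%, 19.2%, 15.2%, 20.2%, 14.7% and 16.8% in clones E, T, I, K, L and P. Those other HMRs hold no row at 0 in all 6 clones, by the way the sets were made. Over all HMRs of these lengths, zero HMRs included, the share was 24.2%, 33.5%, 30.1%, 34.3%, 29.7% and 31.5% in the same order of clones. Regions at 0 in the other 5 clones differed from all other HMRs by 80.2 ± 1.90 percentage points (SD, n = 6 clones). The clones share these regions and their origin in 1 line, so they are not independent draws.

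Where the left-out clone was not at 0, its level was low. The number of such regions was 1726 in clone E, 475 in T, 497 in I, 270 in K, 984 in L and 367 in P. Their median level was 0.0718 in clone E, 0.0557 in T, 0.0833 in I, 0.0769 in K, 0.0690 in L and 0.0769 in P. The 90th percentile lay between 0.125 in clone T and 0.195 in clone P. All 6 medians lay under 0.178, the median of the 6-clone mean level over the HMRs that were not zero HMRs. That value averages clones and includes levels of 0, so it is not the like measure for the levels above 0 of a single clone. The table does not tell for any single region whether a 0 is an unmethylated region or one without a usable estimate. A few regions stood far from this. The region on chromosome 14 from 53263319 to 53265973 was at 1.00 in clone I and at 0 in the other 5. The highest single-clone levels in the others were 0.529 in clone E (chromosome 16 from 70814152 to 70818158), 0.550 in clone T (chromosome 3 from 81651975 to 81657687) and 0.364 in clone K (chromosome 4 from 49774763 to 49780997). In clone L the highest was 0.583 (chromosome 15 from 101096645 to 101098616) and in clone P 0.417 (chromosome 7 from 31955530 to 31957578).

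Clone E parted from the others in long regions. Of the regions at 0 in the other 5 clones, clone E was also at 0 in 97.4% at 1 to 2 kb, 97.7% at 2 to 3 kb, 90.7% at 3 to 5 kb, 80.6% at 5 to 10 kb and 76.5% at 10 to 20 kb. The other clones stayed between 93.8% and 99.1% at 1 to 2 kb and between 93.7% and 98.3% at 10 to 20 kb. The pattern was not confined to these regions. Over all HMRs of 10 to 20 kb, 15.3% were at 0 in clone E and 24.5% to 32.1% in the other clones. At 1 to 2 kb the shares were 58.9% and 55.0% to 62.9%. Clone E also had the lowest share at 0 of the 6 clones on each of the 19 autosomes. The difference between clone E and the others was described and not tested, since a single clone has no replicate here.

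**Figure D2:**
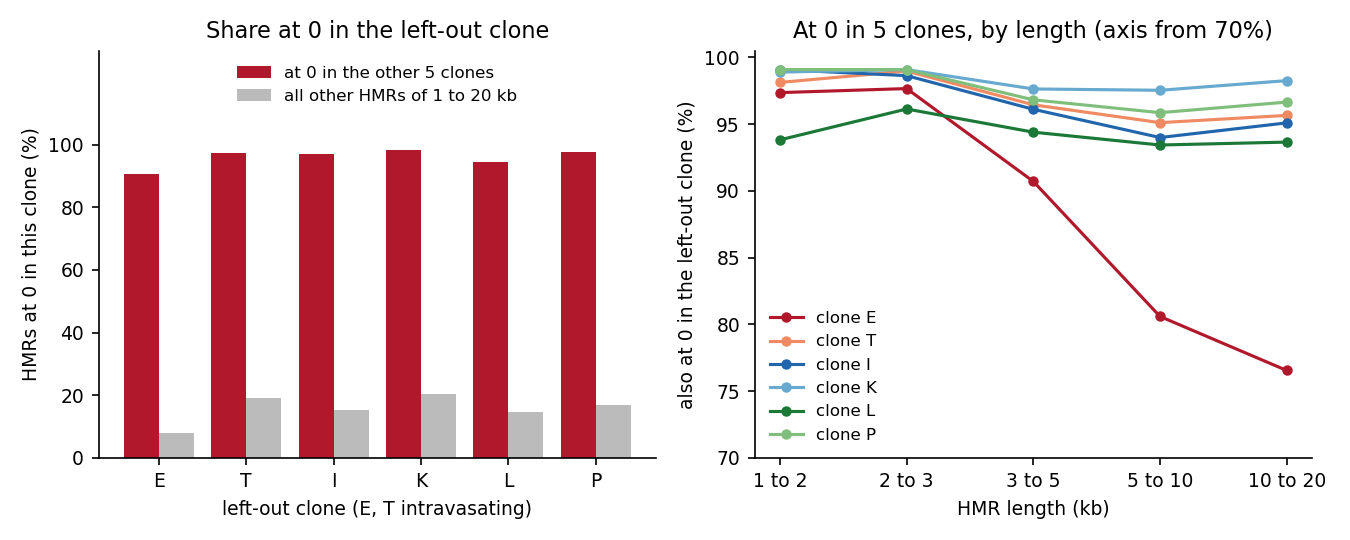
Left, percentage of HMRs at exactly 0 in each left-out clone, for regions at 0 in the other 5 clones (red) and for all other autosomal HMRs of 1 to 20 kb (grey), 1 value per clone. Right, the red percentage by HMR length in kb, on an axis that starts at 70%, where clone E is at 97.4% for 1 to 2 kb and at 76.5% for 10 to 20 kb.

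Zero HMRs lay next to each other. The next HMR along the chromosome was a zero HMR after 49.7% of zero HMRs, against 10.9% of the other HMRs. A zero HMR stood on both sides of 4914 zero HMRs, on 1 side of 6476 and on neither side of 5031. The 16421 zero HMRs formed 8269 runs of consecutive members. Runs of 5 or more numbered 665 and held 4727 members (28.8%), and 104 runs had 10 or more. Members of long runs were the shorter ones: the median length was 2194 bp in runs of 5 or more, 2592 bp in runs of 2 to 4 and 4534 bp for members standing alone.

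Following gaps were wide. The median distance to the next HMR of these lengths was 17302 bp for zero HMRs and 5190 bp for the others. The difference lay mostly in regions under 5 kb. At 1 to 2 kb the median gap was 29.7 kb after zero HMRs and 12.4 kb after others, and at 2 to 3 kb it was 32.6 kb against 5.05 kb. At 3 to 5 kb it was 15.2 kb against 4.90 kb, and at 5 to 10 kb 5.86 kb against 5.12 kb. At 10 to 20 kb it was 4.25 kb against 4.34 kb. Of the 8529 HMRs followed by a gap of 50 kb or more, 47.7% were zero HMRs, against 9.16% of the 25332 followed by a gap under 2 kb. Short zero HMRs were thus set far apart from other HMRs, whereas long ones lay in dense HMR territory. At 1 to 2 kb the next HMR was a zero HMR after 61.2% of zero HMRs and 32.4% of others. Across gaps of 50 kb or more these shares were 57.5% and 38.3%, and across gaps under 2 kb 33.6% and 7.12%. Part of the contrast of 49.7% and 10.9% over all lengths thus went with HMR length and gap.

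The 3 longest runs differed in make-up. On chromosome 4, 28 consecutive zero HMRs lay between 112386426 and 113660749, with lengths from 3299 to 14537 bp and a median of 6767 bp, and covered 15.6% of this span. The run on chromosome 2 from 29642652 to 30298541 held 21 members with a median of 1909 bp, which covered 7.59% of it. Another 21 lay on chromosome 19 from 5447200 to 5811458, with a median of 2093 bp. The run on chromosome 4 was thus built of regions about as long as ordinary HMRs, and the other runs of short ones. On chromosome 2 both bordering HMRs were above 0 in all clones: the HMR before the run was at 0.214, 0.125, 0.286, 0.300, 0.200 and 0.200 in clones E, T, I, K, L and P. The HMR after it was at 0.283, 0.310, 0.143, 0.254, 0.208 and 0.380 in the same order of clones. On chromosome 19 both bordering HMRs were at 0 in 5 of the 6 clones.

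Other zero HMRs stood alone between methylated neighbours. On chromosome 15, the one from 43112714 to 43115023 (2309 bp) followed an HMR at 0.810 in clone E, 0.708 in T, 0.714 in I, 0.444 in K, 0.250 in L and 0.643 in P, across a gap of 271610 bp. The HMR after it, 116558 bp away, had a mean over the 6 clones of 0.553. On chromosome 6, the zero HMR from 110052703 to 110063901 had neighbours with means of 0.534 and 0.549, across gaps of 54653 and 86842 bp. On chromosome 17, the one from 16569741 to 16575185 had neighbours with means of 0.514 and 0.605, across gaps of 156539 and 120738 bp. These 3 had the highest neighbours of all zero HMRs outside chromosome 18.

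HMRs that were not zero HMRs were then compared by whether a zero HMR was their neighbour. Rows at 0 in all clones were left out of both sets by the definition, so the values are a description and no test is given. The 14137 with such a neighbour were at exactly 0 in 17.4% of cases in clone E, 31.1% in T, 27.7% in I, 32.9% in K, 21.7% in L and 29.0% in P. The 62026 without one were at 0 in 5.72%, 16.4%, 12.2%, 17.3%, 12.8% and 13.9% in the same order of clones. In every clone the share was higher next to a zero HMR, by 13.6 ± 2.72 percentage points (SD, n = 6 clones).

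The mean level was also lower there. HMRs next to a zero HMR had a mean level of 0.187 in clone E, 0.121 in T, 0.167 in I, 0.153 in K, 0.126 in L and 0.158 in P. Without such a neighbour the means were 0.252, 0.157, 0.224, 0.202, 0.133 and 0.207. The difference was -0.0436 ± 0.0201 (SD, n = 6 clones), lower in 6 of 6 clones. Clone L had the smallest difference, -0.00792, and clone E the largest, -0.0646. Regions next to a zero HMR were somewhat shorter, with a median of 4568 bp against 5584 bp. When both sets were averaged over the same length classes, the differences were 12.8 percentage points and -0.0427.

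**Figure D3:**
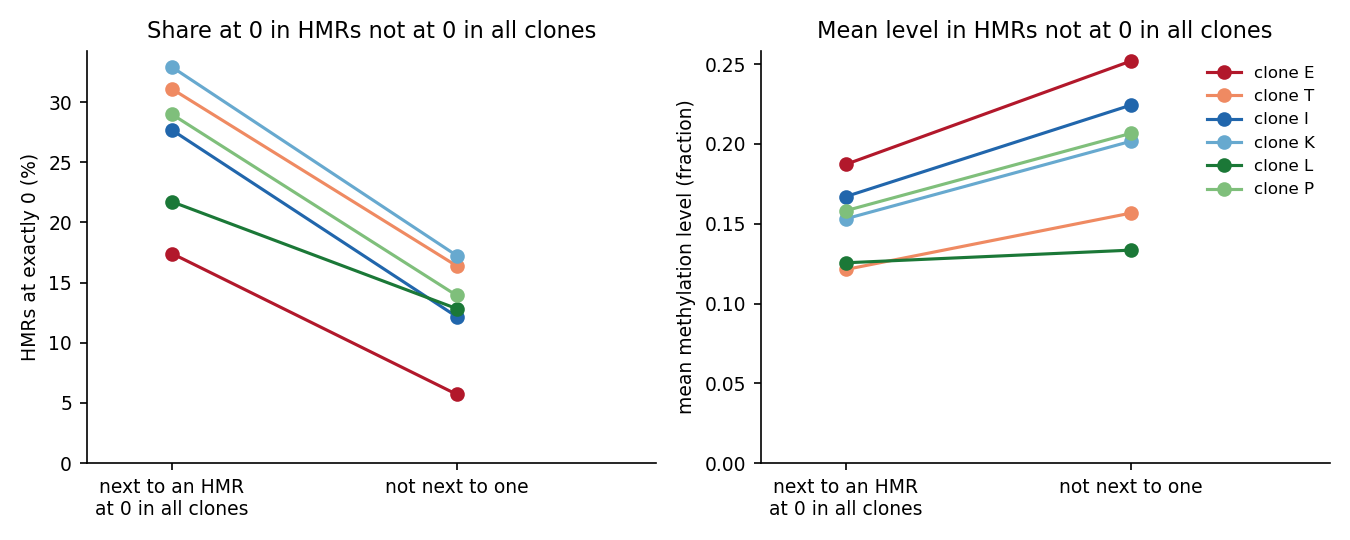
HMRs that are not at 0 in all clones, split by whether an adjacent HMR is (left point of each line) or is not (right point), 1 line per clone. Left, percentage at exactly 0; right, mean methylation level as a fraction. Every line goes down on the left and up on the right, with clone L nearly level at 0.126 and 0.133.

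The contrast that the study was designed for, intravasating against non-intravasating clones, cannot be read in the zero HMRs themselves. Around them 2 tests were made, neither of which could pass 0.05, since an exact permutation over splits of 6 clones into 2 and 4 cannot go below 0.0667. Outside the zero HMRs clone E had 7.89% of HMRs at 0 and clone T 19.1%, against 15.1% in clone I, 20.2% in K, 14.5% in L and 16.7% in P. The intravasating mean was 13.5 ± 7.94% (SD, n = 2) and the non-intravasating mean 16.6 ± 2.55% (SD, n = 4). The difference was -3.10 percentage points (p = 0.467 by exact permutation, two-sided, 0.583 adjusted over 5 tests). That adjustment counted 3 tests that are given without p, and the adjusted p would be larger over the 2 tests of this paragraph alone. Clone E lay below all 4 non-intravasating clones and clone T above 3 of them, and without clone E the difference was 2.57. The mean level of HMRs next to a zero HMR was 0.154 ± 0.0466 (SD, n = 2) in intravasating clones, against 0.151 ± 0.0179 (SD, n = 4) in non-intravasating ones. The exact permutation test, two-sided, gave p = 1.0. That difference of 0.00331 was -0.0307 without clone E, 0.0370 without clone T, and -0.00547 without clone L.

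Chromosomes differed in the share of their HMRs that were zero HMRs. The share of HMRs at 0 in all clones was highest on chromosomes 13 (711 of 2699, 26.3%), 7 (1662 of 6567, 25.3%) and 11 (1105 of 5365, 20.6%). It was lowest on chromosomes 1 (700 of 8197, 8.54%), 3 (760 of 5444, 14.0%) and 5 (956 of 6333, 15.1%). Per Mb, zero HMRs were densest on chromosomes 7 (10.9) and 11 (9.09). Chromosome 13 had 5.91 per Mb, and the fewest HMRs per Mb of any autosome, 22.4. Chromosome 1 had the most HMRs of any autosome and only 0.441 zero HMRs of 5 kb or longer per Mb, against 4.19 per Mb on chromosome 7. Within chromosomes, 477 windows of 5 Mb with at least 50 HMRs ranged from 0 to 74.5%, with a median of 15.9%. The windows named next were picked by their shares. The window of chromosome 11 that starts at 120 Mb had 38 zero HMRs among 51, and the first 5 Mb of chromosome 19 had 37 among 52. Both were close to the minimum of 50 HMRs. The HMRs of chromosome 11 ended before 125 Mb, so its window was not a full 5 Mb. Fuller windows had 71 among 116 (61.2%, chromosome 11 from 75 to 80 Mb) and 77 among 133 (57.9%, chromosome 10 from 80 to 85 Mb). From 100 to 105 Mb on chromosome 1, none of 291 HMRs was a zero HMR.

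The promoter table, made from the same 6 clones, gave levels over gene promoters. A gene was counted as having a low promoter when its lowest promoter had a mean level under 0.1 over the 6 clones, which held for 5022 of 20343 genes, and 18882 genes were placed on a chromosome by symbol. Across the 19 autosomes the density of zero HMRs under 3 kb went with that of low promoters (Pearson r = 0.935, Spearman rho = 0.905, n = 19 chromosomes, as a description). Chromosome 11 was highest on both, with 5.86 short zero HMRs and 3.27 low-promoter genes per Mb. Chromosome 1 was lowest in short zero HMRs, 2.44 per Mb, and had 1.26 low-promoter genes per Mb. Without chromosomes 11 and 17, the farthest on the promoter axis, Pearson r was 0.907 (n = 17). For zero HMRs of 5 kb or longer r was 0.0219 and rho -0.105. Their density was highest on chromosomes 7, 18 and 14, at 4.19, 3.40 and 3.37 per Mb. Short HMRs that were not zero HMRs had r = 0.743, so the relation was not confined to the zero HMRs, and with all genes in place of low promoters short zero HMRs had r = 0.895. These correlations are between chromosomes that share their 6 clones, and densities are per Mb up to the last HMR of each.

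**Figure D4:**
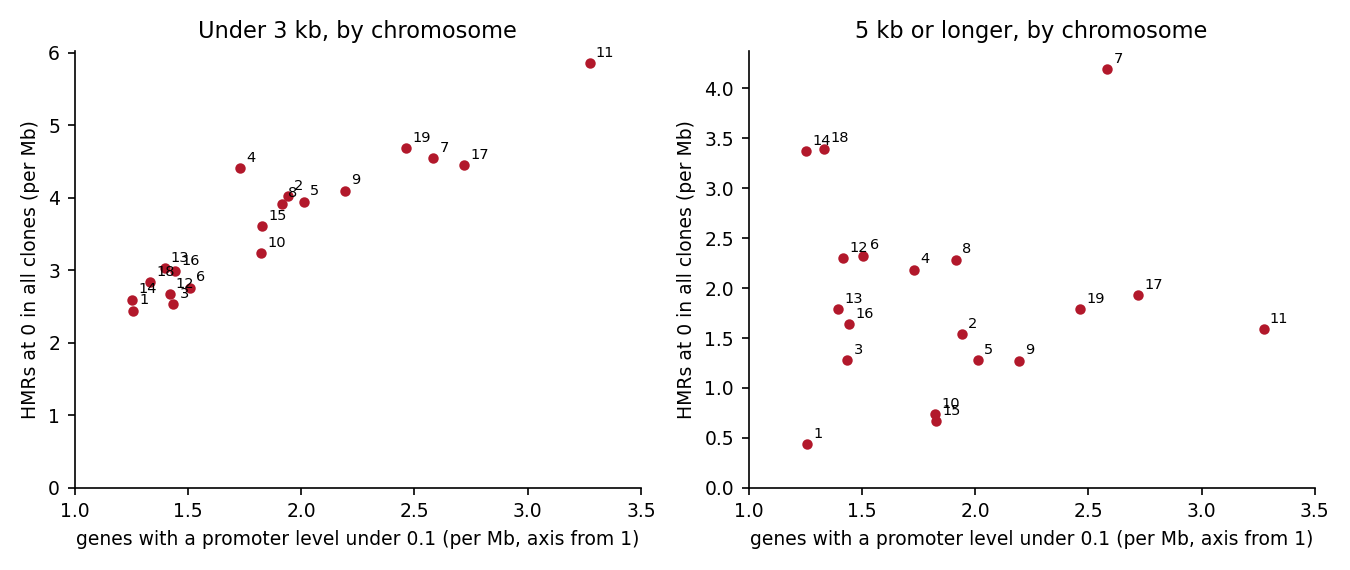
Zero HMRs per Mb (vertical axis) against genes with a low promoter per Mb (horizontal axis, from 1), 1 point per autosome, labelled by its number. Left, zero HMRs under 3 kb, where the points lie along a line (r = 0.935); right, those of 5 kb or longer, where they do not (r = 0.0219).

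Clones also differed from each other by chromosome. On chromosome 7 the share of HMRs at 0 was 34.3% in clone E, 50.8% in T, 40.7% in I, 57.0% in K, 42.0% in L and 42.5% in P. On chromosome 5, clone K was at 38.0% and the other clones between 19.5% and 29.3%. On chromosome 16, clone T was at 44.7% and clone K at 39.2%, while the other clones lay between 25.2% and 30.6%. On chromosome 13, clones T and I were highest, at 49.7% and 47.1%. On chromosome 1 all 6 clones were low and close, from 11.8% to 16.2%. Read depth and copy number per chromosome came with neither table, and their part in these shares was not tested.

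**Figure D5:**
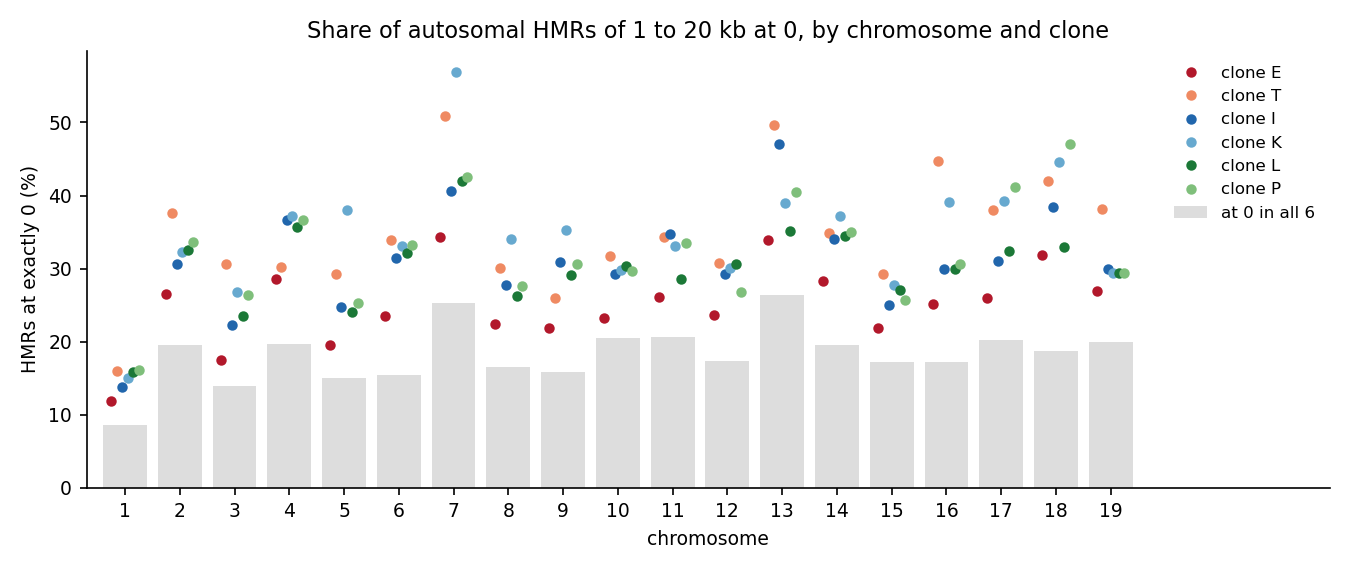
Percentage of autosomal HMRs of 1 to 20 kb at exactly 0, by chromosome, with grey bars for HMRs at 0 in all 6 clones and 1 point per clone. Chromosome 1 has the lowest bar, 8.54%, and clone K on chromosome 7 the highest point, 57.0%.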

How the data were processed

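There were 14 bisulfite libraries, with 2 rounds for the parental line and for each of 6 clones. The deposited values were methylation levels as a fraction from 0 to 1, with 1 column per clone for both rounds. Whether the rounds were separate cultures is not in the labels, so each clone was 1 replicate. Per the submitters' processing notes, bedtools, DESeq and the build mm10 were named with no role. For the aligner and the HMR caller no name is stated in any label or header. No counts or coverage came with the tables, so the depth is unknown, no coverage minimum could be applied and no counting interval is given.

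Zero HMRs were rows on chromosomes 1 to 19 with end minus start from 1000 to under 20000 bp and 6 levels of exactly 0. Neighbours were the previous and next rows within the same limits. Python 3.11.15, pandas 2.3.3, NumPy 2.4.6, SciPy 1.17.1 and Matplotlib were used, and the functions were tested on simulated tables. Exact permutation tests ran over clones, never over regions, with Benjamini-Hochberg adjustment over the 5 tests of the design. Of these, 3 sign-flip tests, on the left-out clone and on HMRs next to zero HMRs, are given without p, since they read regions that the levels had helped to choose. Regions were named by rule: the longest members, the longest runs, those between the highest neighbours, the highest left-out level per clone and those at the limits, none on chromosome 18. Members, tests and lists were chosen with earlier results of these data known. Alternatives were a limit of 0.01, lengths of 2000 to under 10000 bp, any length, length classes, neighbours within 50 kb, chromosome 13 left out, and each clone left out.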

Additional observations from a re-analysis of the deposited data

Results flagged for a closer look

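In the non-intravasating group of 4 clones, 27 per-clone values were screened for a clone far from the rest, and 4 were found. Chance gives about 1 in 20 for independent values. These values come from the same 4 clones and partly the same HMRs, so the count cannot be set against that rate. Clone K had 38.0% of HMRs at 0 on chromosome 5, against 24.0% to 25.3% in clones I, L and P. It had 57.0% on chromosome 7, against 40.7% to 42.5%. On chromosome 16 it had 39.2%, against 29.9% to 30.6%. Clone I had 30.0% on chromosome 19, against 29.4% in each of clones K, L and P, a difference of under 1 percentage point that stands out only because these 3 lay so close together. The intravasating clones were not in this screen. Clone T was above the flagged clone on chromosomes 16 (44.7%) and 19 (38.1%) and below it on chromosomes 5 (29.3%) and 7 (50.8%). Clone E was below it on all 4. Depth and copy number per chromosome were not tested.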

How the results depend on the processing

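The differences in the share at 0 in the left-out clone, the share at 0 next to zero HMRs and the mean level next to them kept their direction with levels under 0.01 counted as 0, at 2000 to under 10000 bp, averaged over length classes and without chromosome 13. The differences next to zero HMRs also did with neighbours within 50 kb, not run for the left-out clone. With all 6 clones the differences were 71.0 to 81.1 percentage points, 10.9 to 16.4 percentage points and -0.0588 to -0.0363. These include regions of 1 to 2 kb and of 5 to 20 kb taken separately, which were added after seeing the data. In each setting the rows at 0 in all clones fell on 1 side of the left-out comparison, so its differences stay a description. With 1 clone left out they were 79.2 to 80.3, 12.3 to 13.0 and -0.0466 to -0.0410. The difference between intravasating and non-intravasating clones in the share at 0 was -8.77 to 2.57 with 1 clone left out and turned positive only without clone E (2.57). In the mean level next to zero HMRs it was -0.0307 to 0.0370 and turned negative without clone E (-0.0307) and without clone L (-0.00547). The number of zero HMRs was 16691 to 18147 with 5 clones, 16433 with levels under 0.01 counted as 0, 17371 at any length and 9988 at 2000 to under 10000 bp, where fewer regions qualify by construction. No paired analysis was possible because the columns carry no round. The unknown depth limits all levels.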

Other observations

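Outside the autosomal limits, HMRs at 0 in all 6 clones were more frequent on chromosome X, with 1525 of 4185 HMRs of 1 to 20 kb (36.4%), than on the autosomes (17.7%). On chromosome Y they were 13 of 14 HMRs of any length. Whether a 0 there is an unmethylated region or one without a usable estimate was not tested. Among autosomal HMRs under 1 kb they were 720 of 3207 (22.5%), a lower share than the 46.6% at 1 to 2 kb. Among those of 20 kb or more they were 230 of 1456 (15.8%), a higher share than the 10.6% at 10 to 20 kb.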
